A study of Mus musculus with 16 samples.

Results

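The adrenal gland of control mouse embryos was followed over 1 day of normal development, from E15.5 to E16.5 (embryonic days counted from the morning of the mating plug). The arrays were chosen by their labels alone: 8 of the 16 arrays in the series carried RNA of control glands, 4 at each stage, and all 18193 genes with a probe set were considered, of which 13642 were bright enough to be tested. The controls, named WT in the labels, were littermates without the Cre transgene, born to C57BL/6 parents that carried floxed Dicer alleles, so a control gland may itself have carried floxed, unrecombined Dicer. The labels do not say how many such alleles each control had. The other 8 arrays, 4 per stage, held glands of Sf1-Cre/Dicer lox/lox embryos, in which Cre driven by Sf1 removes Dicer, the enzyme that matures microRNAs, from steroid-producing cells. Each array received RNA pooled from the glands of 1 genotype in 1 litter, with 4 litters per stage, so every replicate of a group was a separate litter. Values are log2 signals, on which a difference of 1 is a doubling, and because whole pooled glands were measured, fewer cells of a type and less RNA per cell cannot be told apart.

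The adrenal cortex makes corticosteroids from cholesterol, which it takes up or synthesises itself, and the medulla holds chromaffin cells that make and store catecholamines. In late gestation cortical and chromaffin cells are still dividing and sorting into their zones, macrophages are settling in the tissue, and blood in its vessels passes from red cells made in the yolk sac to red cells made in the fetal liver. The yolk sac cells carry embryonic globins and the later cells carry adult globins.

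The dissected tissue matched its label. The 6 defining genes of the cortex were all tested, and Hsd3b1 lay between 13.86 and 14.08 and Star between 13.12 and 13.86 over the 8 control arrays. The 3 chromaffin genes matched on the array were also clearly present, with Chga between 11.50 and 12.24. Of markers of neighbouring or other tissues, those of fat cells (Adipoq, Ucp1) and Umod, Ddx4, Cdx2 and Ptf1a were below the filter. The kidney genes Six2, Nphs1 and Cdh16 passed it at 4.78 to 5.71, the gonad gene Amh at 5.76 to 6.27 and the epithelial gene Epcam at 6.91 to 7.81, while liver and muscle genes were present in varying amounts (Afp 8.68 to 13.04, Mylpf 7.85 to 12.76). Array 2 at E16.5 stood apart in its RNA and its tissue. Its difference between 3′ and 5′ control probe sets was 3.15, against 0.25 to 1.07 in the other control arrays, and its mean over 15 muscle genes was 10.18, against 6.76 to 8.04. Of those muscle genes 14 had values above 0 from E15.5 to E16.5 (51.6% of all genes did). Their list median was 0.36, and −0.54 without E16.5 arrays 1 and 2. Among the liver genes 11 were above 0 (median 0.17, and −0.43 without those arrays). Array 1 at E16.5 had a mean of 8.68 over 14 liver genes, where the other E16.5 arrays had 6.12 to 6.45, and array 1 at E15.5 had 8.57. E16.5 array 1 also had Nr6a1, a nuclear receptor, at 7.75, where the other 7 control arrays had 5.57 to 5.87. The 8 knockout arrays read 8.92 to 9.31, so in this gene the array labelled control lay between the genotypes. The part of either tissue, or of this signal, in the results was not tested. Values without E16.5 array 1 or array 2 are given for some genes and lists only. The pools also differed in sex: Xist was 12.06, 10.73 and 10.37 in E15.5 array 4 and E16.5 arrays 1 and 2 and 4.62 to 5.17 elsewhere, and Kdm5d, a Y-linked gene, was 2.95 in E15.5 array 4 and 7.53 to 8.56 elsewhere. The stages did not separate on mean signal, on the 3′ to 5′ difference, or on the means of the liver and muscle genes (exact permutation tests, two-sided, p = 0.971, 0.886, 0.743 and 0.686, each 0.971 after Benjamini-Hochberg adjustment over 4 tests; 4 against 4 arrays can reach 0.0286).

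In these control glands 13 genes passed the test, 6 higher and 7 lower at E16.5. Among them the largest fall was that of the embryonic globin Hbb-y, 13.1-fold, and the largest rise that of the cytochrome P450 Cyp2f2, 3.41-fold. The genes that fell also held another embryonic globin, a pair of cholesterol synthesis enzymes, a replication licensing factor and a pair of transcription factors of neural and epithelial progenitors. The 13 were 0.0953% of the genes tested (0.044% higher, 0.0513% lower; limma, Benjamini-Hochberg adjusted p under 0.05), and 6 of them differed by 2-fold or more. In all 13 the 4 values of one stage lay wholly apart from those of the other, as they did, of all genes tested, in 2.31% with higher and 1.68% with lower values at E16.5. At an unadjusted p under 0.05, 660 genes were higher (4.84%) and 411 lower (3.01%), and 51.6% of all genes had a change above 0, with a median of 0.0063. The count rested on the choice of arrays: without E15.5 array 1, 2 or 3 no gene passed (902, 903 and 1056 genes still had an unadjusted p under 0.05), without E16.5 array 1, 2, 3 or 4 the number was 16, 2, 1 and 5, and without E16.5 arrays 1 and 2 together it was 4. A fit on the 8 control arrays alone also passed none (828 genes at an unadjusted p under 0.05), limma's array weights passed 1102, and each of the 13 kept its direction in all of these.

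**Figure D1:**
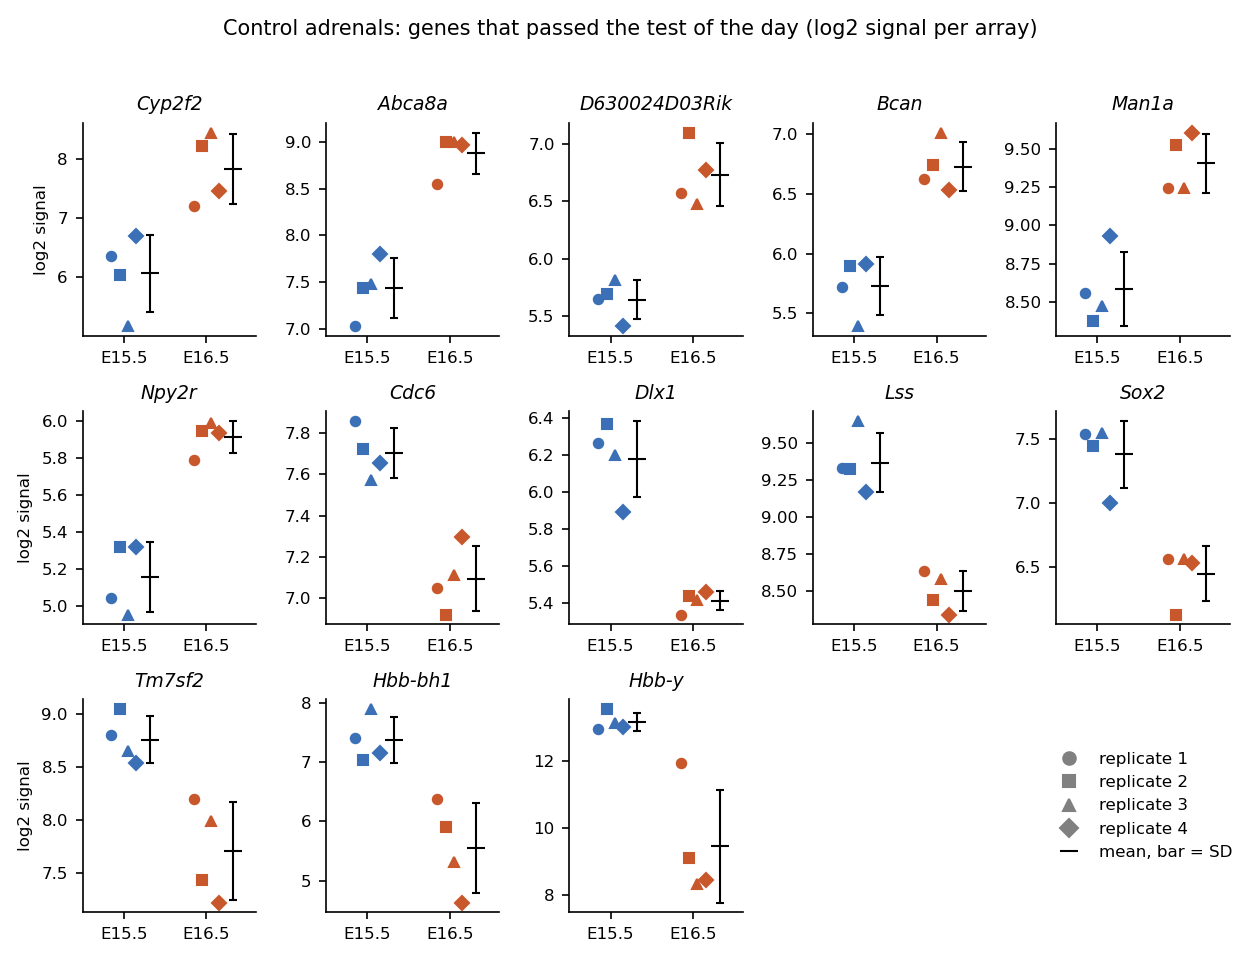
Log2 signal of the 13 genes that passed the test, in the 4 E15.5 (blue) and 4 E16.5 (orange) control arrays, with marker shapes for the replicate number and black bars for the mean and SD; vertical scales differ between panels. In every panel the 4 values of one stage lie wholly on one side of the other 4, and E16.5 array 1 (circle) is the highest E16.5 value for Hbb-y, at 11.93 against 8.33 to 9.10 in the other 3.

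Embryonic globins gave the largest change of the day. Hbb-y encodes the epsilon-y chain of embryonic haemoglobin, and Hba-x the zeta chain. The windows around their starts are printed because both genes moved together; sequences are RefSeq's, build GRCm38.p6, from 250 bases before to 50 bases after the start, 5′ to 3′ on the gene's strand. The Hbb-y window is chr7:103853158-103853457 on the minus strand and the Hba-x window chr11:32276350-32276649 on the plus strand. Capitals mark matches, on either strand, to TATAAA for the TATA box, to CCAAT for the box of that name, to CCACCC for the CACCC box and to AGATAA for a GATA site.
Hbb-y: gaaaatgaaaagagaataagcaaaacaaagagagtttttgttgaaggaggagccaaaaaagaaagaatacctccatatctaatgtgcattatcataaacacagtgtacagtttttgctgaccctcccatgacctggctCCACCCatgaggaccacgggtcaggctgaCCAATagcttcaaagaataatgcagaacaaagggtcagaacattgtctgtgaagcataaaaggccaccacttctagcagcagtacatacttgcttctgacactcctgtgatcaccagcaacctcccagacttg
Hba-x: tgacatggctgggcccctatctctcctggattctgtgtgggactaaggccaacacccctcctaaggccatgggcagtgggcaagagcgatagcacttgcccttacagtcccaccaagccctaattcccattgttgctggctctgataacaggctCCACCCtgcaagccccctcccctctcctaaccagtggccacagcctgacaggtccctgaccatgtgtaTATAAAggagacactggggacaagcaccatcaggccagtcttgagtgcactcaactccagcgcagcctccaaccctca
The Hbb-y window held CCACCC from 112 bases and CCAAT from 83 bases before the start, and the Hba-x window held CCACCC from 96 bases and TATAAA from 28 bases before it. No match overlapped another, and AGATAA was in neither. Other forms of a GATA site were not searched for. Among all 32851 promoter windows of this length, TATAAA was in 13.6%, CCAAT in 37.4%, CCACCC in 31.5% and AGATAA in 11.2%.

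Hbb-y had log2 signals of 12.95, 13.56, 13.14 and 13.01 at E15.5. At E16.5 the 4 arrays read 11.93, 9.10, 8.33 and 8.44. Array 1 at E16.5 lay nearer to the E15.5 arrays than to the other 3, which were far lower, and the stages did not overlap. The fall was −3.71 (SE 0.61, limma adjusted p = 0.0254, n = 4 per stage). The other 2 probe sets of Hbb-y gave −3.67 and −3.98. E16.5 array 1 also had the highest mean of liver genes; without it the fall was −4.54 (adjusted p = 7.66e-05). Hbb-bh1, the beta-h1 chain of the same embryonic haemoglobins, had 7.42, 7.03, 7.90 and 7.16 at E15.5 and 6.38, 5.90, 5.31 and 4.62 at E16.5. All 4 later values were below all 4 earlier ones, by −1.82 (SE 0.32, adjusted p = 0.0344), and its other 2 probe sets gave −1.54 and −1.20.

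Hba-x had 8.36, 9.08, 8.86 and 8.52 at E15.5 and 8.22, 5.57, 5.66 and 5.67 at E16.5. Array 1 at E16.5 sat just under the E15.5 range and the other 3 far below it. With that array the difference was −2.43 (SE 0.51) and did not pass (adjusted p = 0.106); without it the difference was −3.08 and passed (adjusted p = 0.00318), and without E16.5 arrays 1 and 2 it was −3.04 (adjusted p = 0.0199). Neither adult globin tested passed. Hba-a2, read from a dim probe set that can say little of its level, had 5.42, 5.27, 5.40 and 4.72 at E15.5 and 4.85, 6.37, 5.20 and 4.94 at E16.5, a difference of 0.14 (SE 0.27, adjusted p = 0.95), which was −0.21 without E16.5 array 2. Hbb-b2 had 9.37, 8.81, 9.18 and 9.20 and then 9.29, 9.42, 9.16 and 8.26, a difference of −0.11 (SE 0.21, adjusted p = 0.955), which was 0.15 without E16.5 array 4. Both belong to pairs of near-identical genes, so their probe sets may read either copy. Of 18 other red cell genes, such as those of haem synthesis and the red cell membrane, none had an unadjusted p under 0.05. Of the 18, 12 had values below 0 (48.4% of all genes did), and the list median was −0.19.

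**Figure D2:**
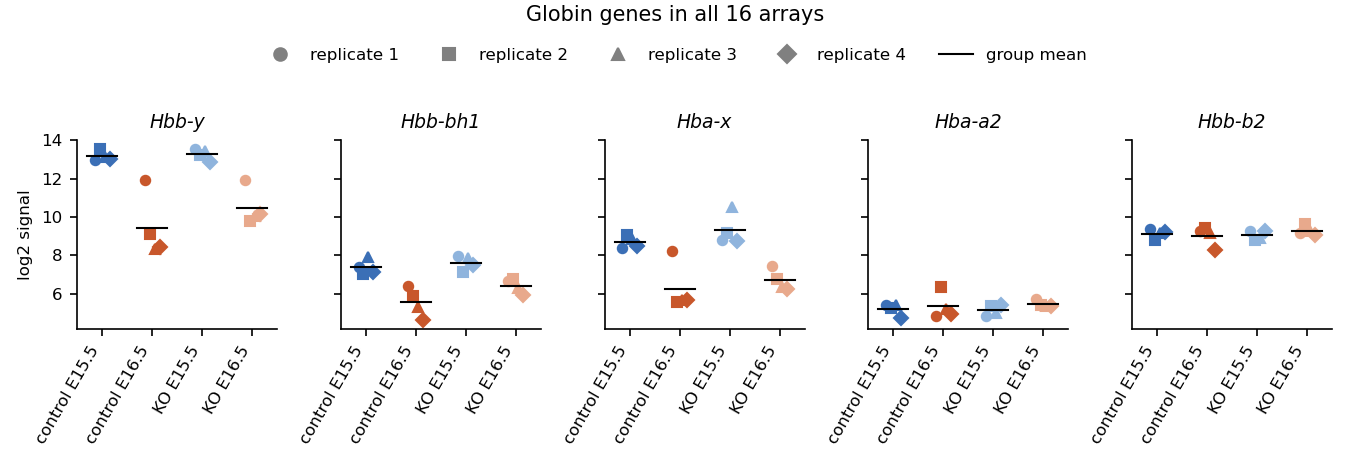
Log2 signal of 5 globin genes in all 16 arrays, by group, with marker shapes for the replicate number and a line at each group mean. The 3 embryonic globins are lower at E16.5 in controls and in knockouts, and the values of Hba-a2 and Hbb-b2 overlap between stages in both. E16.5 array 1 of the controls is the high circle for Hbb-y (11.93) and Hba-x (8.22).

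Genes of cholesterol synthesis were lower at E16.5. Of the list of 21 tested genes of cholesterol synthesis, uptake and storage, 1 passed (Lss, lower), and 14 were lower and 1 higher at an unadjusted p under 0.05. At that level 3.01% of all genes were lower and 4.84% higher. The list median was −0.44, against 0.0063 over all genes. The windows of Lss, Tm7sf2 and Cyp51, the enzymes of the sterol-ring steps with the smallest p-values (chosen after their values were seen), are printed for their shared letters. They lie at chr10:76531355-76531654 (plus strand), chr19:6067801-6068100 (minus strand) and chr5:4104648-4104947 (minus strand). Capitals mark CCAAT on either strand (ATTGG when on the other one).
Lss: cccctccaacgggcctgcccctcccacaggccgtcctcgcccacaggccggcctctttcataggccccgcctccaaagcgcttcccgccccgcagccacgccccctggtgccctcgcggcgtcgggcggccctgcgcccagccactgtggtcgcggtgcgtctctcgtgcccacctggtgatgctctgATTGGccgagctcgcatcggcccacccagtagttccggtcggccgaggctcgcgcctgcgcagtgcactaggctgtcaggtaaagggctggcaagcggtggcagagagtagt
Tm7sf2: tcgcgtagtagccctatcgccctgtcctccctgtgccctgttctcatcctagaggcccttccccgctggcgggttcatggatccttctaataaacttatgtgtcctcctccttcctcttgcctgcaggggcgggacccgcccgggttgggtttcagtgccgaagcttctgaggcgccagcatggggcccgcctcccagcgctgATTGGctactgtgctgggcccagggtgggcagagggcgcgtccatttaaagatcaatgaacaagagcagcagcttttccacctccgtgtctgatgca
Cyp51: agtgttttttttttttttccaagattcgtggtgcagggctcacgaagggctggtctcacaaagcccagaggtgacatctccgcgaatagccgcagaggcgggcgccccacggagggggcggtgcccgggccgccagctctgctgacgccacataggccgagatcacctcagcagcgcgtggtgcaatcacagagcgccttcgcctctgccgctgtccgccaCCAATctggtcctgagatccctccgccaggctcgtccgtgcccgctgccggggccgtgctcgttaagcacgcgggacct
Each of the 3 windows held 1 CCAAT, from 62, 47 and 29 bases before the start. CCAAT was in 14 of the 19 windows found for 16 of the list's 25 genes (73.7%), and in 37.4% of all windows. The letters TCACNCCAC, a form of the sterol regulatory element, were in none of these 3, in 1 of the 19 and in 1.24% of all windows. Other forms of this element were not searched for.

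Lss, lanosterol synthase, makes lanosterol, the first sterol of the pathway. It had 9.33, 9.32, 9.65 and 9.17 at E15.5 and 8.63, 8.44, 8.58 and 8.34 at E16.5. The stages did not overlap, and the fall was −0.87 (SE 0.14, adjusted p = 0.0254). Its other 2 probe sets gave smaller differences, −0.41 and −0.10, and the mean of its probe sets did not pass (−0.46). Tm7sf2, a sterol reductase that was not on the list, had 8.80, 9.05, 8.65 and 8.54 at E15.5 and 8.20, 7.42, 7.99 and 7.21 at E16.5. All 4 E16.5 values were lower, by −1.05 (SE 0.19, adjusted p = 0.0427). Cyp51, lanosterol demethylase, had 10.29, 10.16, 10.37 and 9.86 and then 9.69, 8.78, 9.40 and 9.27, also without overlap. Its difference of −0.88 (SE 0.17) narrowly missed the threshold (adjusted p = 0.0761), and its other 2 probe sets gave −0.81 and −0.46.

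Other members had values of the same sign that did not pass. Msmo1, the sterol methyl oxidase, had 11.43, 11.32, 11.14 and 10.94 and then 10.72, 9.35, 10.50 and 10.47 (−0.95, SE 0.24, adjusted p = 0.175). Array 2 was by far the lowest of the E16.5 arrays here, as it was for Fdps, farnesyl diphosphate synthase, at 8.88 against 10.97 to 12.07 in the other 3. Fdps had a difference of −1.25 (SE 0.46, adjusted p = 0.433), and of −0.59 without E16.5 array 2. Idi1, the isomerase of the isoprenoid steps, had a difference of −0.74 (SE 0.18), Sqle, squalene epoxidase, one of −0.72 (SE 0.18), and Insig1, which holds the sterol sensor in the endoplasmic reticulum, one of −0.72 (SE 0.18), with no overlap between stages in any of the 3. Srebf2, the transcription factor of the pathway, was at −0.42 and Hmgcs1, an early enzyme, at −0.37. Stard4, a carrier of cholesterol between membranes that was on the corticosteroid list, was lower without overlap (−0.51, SE 0.10, adjusted p = 0.103). Of the list 4 genes were above 0, among them Abca1, the cholesterol exporter, at 0.61 (SE 0.21, adjusted p = 0.364), and Dhcr7, the last enzyme of the pathway, at 0.30 (SE 0.22, adjusted p = 0.847). The mean over the list was 10.31, 10.17, 10.36 and 10.20 at E15.5 and 10.05, 9.58, 9.96 and 9.84 at E16.5, so every later array lay below every earlier one. Without E16.5 arrays 1 and 2 the median was −0.50, and 13 genes were lower at an unadjusted p under 0.05.

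Genes of cell division were lower as well, with values below 0 in every member tested. Of 33 DNA replication genes, all 33 had values below 0 (48.4% of all genes did), and 22 were lower at an unadjusted p under 0.05 (3.01% of all genes were). Of the 33, 1 passed, and the median was −0.36. Of 27 mitosis genes, all 27 were below 0, 23 were lower at an unadjusted p under 0.05, none passed the adjusted test, and the median was −0.45. The gene that passed was Cdc6, which loads the replicative helicase onto DNA. Its window, chr11:98907901-98908200 on the plus strand, is printed because the list's promoters often held the letters TTTNNCGC of an E2F site, marked in capitals (here on the other strand).
Cdc6: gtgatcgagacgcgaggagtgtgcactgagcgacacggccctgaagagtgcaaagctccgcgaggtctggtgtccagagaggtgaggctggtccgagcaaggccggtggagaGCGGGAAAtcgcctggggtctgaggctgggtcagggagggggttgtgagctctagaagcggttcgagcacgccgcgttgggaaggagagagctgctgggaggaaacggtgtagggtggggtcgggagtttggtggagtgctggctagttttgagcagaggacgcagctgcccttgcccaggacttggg
The match read TTTCCCGC on the minus strand and began 138 bases before the start; CCAAT was not in this window. TTTNNCGC was in 14 of 33 windows of 28 replication genes (42.4%), in 1 of 23 windows of 22 mitosis genes (4.35%) and in 5.17% of all windows. CCAAT was in 57.6% of the replication windows and in 82.6% of the mitosis windows.

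Cdc6 had 7.86, 7.72, 7.57 and 7.66 at E15.5 and 7.05, 6.92, 7.11 and 7.30 at E16.5. The stages did not overlap, and the fall was −0.61 (SE 0.11, adjusted p = 0.0344). Gins1, a subunit of the replicative helicase, had 9.07, 9.25, 9.33 and 9.17 and then 8.94, 8.11, 8.92 and 8.48 (−0.59, SE 0.17, adjusted p = 0.242). Pcna, the polymerase clamp, had 12.87, 12.94, 12.65 and 12.78 and then 12.72, 11.05, 12.64 and 12.61 (−0.56, SE 0.29, adjusted p = 0.686). For Pcna E16.5 array 2 lay far below the other 3, which were at or just under the low end of the E15.5 values; without it the difference was −0.15. Rfc4, of the clamp loader, and Mcm3, of the helicase ring, were at −0.50 (SE 0.21; −0.28 without E16.5 array 2) and −0.46 (SE 0.17).

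Among mitosis genes Bub1, a spindle checkpoint kinase, had 9.96, 9.94, 9.72 and 9.80 at E15.5 and 9.03, 8.85, 9.24 and 9.56 at E16.5 (−0.69, SE 0.17, adjusted p = 0.152). Mki67, the proliferation marker Ki-67, had 11.46, 11.27, 11.33 and 11.19 and then 10.50, 10.82, 10.86 and 11.25 (−0.45, SE 0.13, adjusted p = 0.22). Bub1 did not overlap between stages, and for Mki67 only E16.5 array 4 reached the E15.5 range. Bub1 ran from −0.82 to −0.068 over all alternatives tried, and Mki67 from −0.59 to −0.26. Plk1, the polo kinase, was lower without overlap (−0.69, SE 0.20), and Ube2c, Cenpa and Birc5, of cyclin destruction, the centromere and the chromosomal passenger complex, were at −0.77, −0.74 and −0.72 with E16.5 array 2 the lowest array for each; without it they were at −0.41, −0.43 and −0.42. The means over the replication list were 9.69, 9.64, 9.56 and 9.52 at E15.5 and 9.32, 9.02, 9.34 and 9.29 at E16.5, and those over the mitosis list 9.74, 9.70, 9.66 and 9.61 and then 9.27, 8.90, 9.33 and 9.37. Array 2 was lowest in both lists, and the stages did not overlap with or without it. Without E16.5 arrays 1 and 2 the medians were −0.29 and −0.27, and 13 and 15 genes were lower at an unadjusted p under 0.05. Without E15.5 array 1 the replication count was 14.

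Just outside these lists, Hmga2, a chromatin protein of fetal growth and a known let-7 target, had 9.78, 9.77, 10.11 and 9.56 at E15.5 and 8.88, 9.40, 9.09 and 9.16 at E16.5. The stages did not overlap (−0.67, SE 0.13, adjusted p = 0.0808). Of 15 let-7 target and oncofetal genes tested, 3 were lower at an unadjusted p under 0.05 and none higher. Among all genes 3.01% were lower and 4.84% higher. The list median was −0.03. The others of the 3 were Plagl2 (−0.52, SE 0.16) and Igf2bp3 (−0.25, SE 0.08). Igf2, the fetal growth factor, had a difference of −0.20 (SE 0.17, adjusted p = 0.873) and overlapped widely. Ncapd2 (−0.59) and Shcbp1 (−0.43), genes of chromosome condensation and cell division, and Asb4 (−0.56), of the ubiquitin system, were among the smallest p-values of the lower genes, with adjusted p-values of 0.104, 0.104 and 0.0808.

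A pair of developmental transcription factors fell. Sox2, a factor of neural and Schwann cell progenitors, had 7.53, 7.44, 7.55 and 7.0 at E15.5 and 6.57, 6.13, 6.57 and 6.54 at E16.5 (−0.93, SE 0.15, adjusted p = 0.0254). Dlx1, a homeobox factor of neural development, had 6.26, 6.37, 6.20 and 5.89 and then 5.34, 5.44, 5.42 and 5.46 (−0.77, SE 0.13, adjusted p = 0.0254). Neither overlapped, and the 4 E16.5 values of Dlx1 lay close together.

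**Figure D3:**
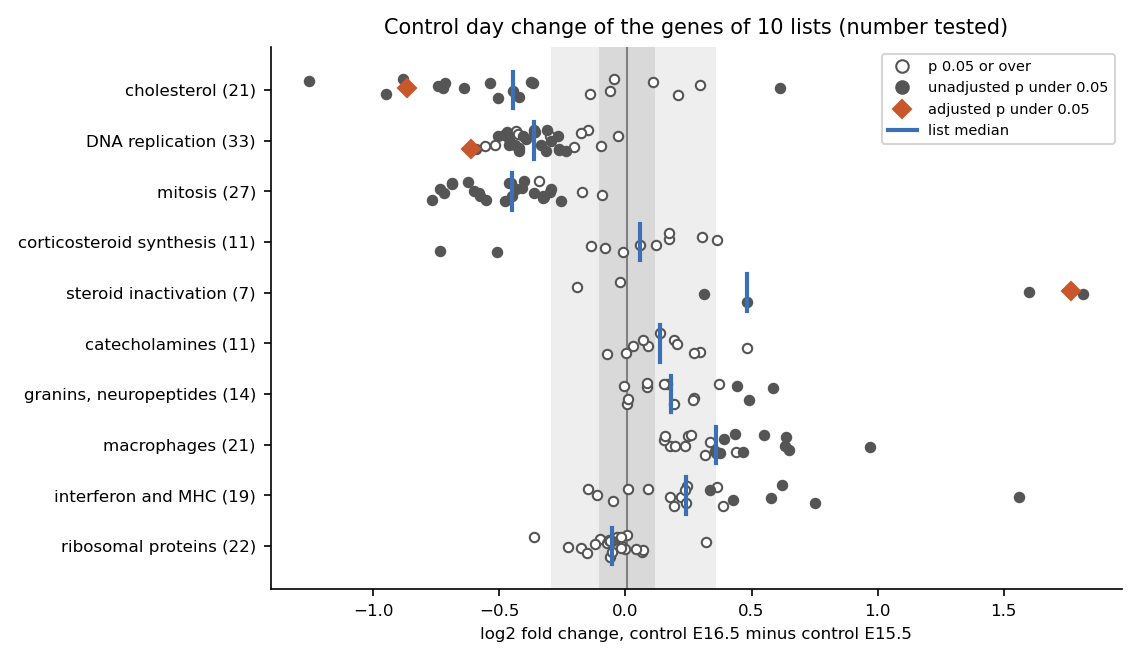
Log2 fold change of each tested gene (points) in 10 gene lists, control E16.5 minus E15.5; filled circles have an unadjusted p under 0.05, orange diamonds an adjusted p under 0.05, blue bars are list medians, and the grey bands hold the middle 50% and 90% of all 13642 genes (−0.10 to 0.11 and −0.29 to 0.35). The cholesterol, replication and mitosis lists lie mostly left of the dark band, and macrophage genes all lie right of 0.

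The genes that rose came from unrelated families. Cyp2f2, a cytochrome P450 known from lung, had 6.36, 6.03, 5.17 and 6.70 at E15.5 and 7.21, 8.21, 8.45 and 7.46 at E16.5. The stages did not overlap, and the rise was 1.77 (SE 0.28, adjusted p = 0.0254). This SE draws on the spread of all 16 arrays. The SDs at E15.5 and E16.5 were 0.66 and 0.59 in controls, but 0.08 and 0.11 in knockouts. Abca8a, an ABC lipid transporter, had 7.03, 7.43, 7.48 and 7.80 and then 8.55, 9.0, 9.0 and 8.96 (1.44, SE 0.23, adjusted p = 0.0254). D630024D03Rik, a gene with no assigned function, had 5.66, 5.69, 5.82 and 5.41 and then 6.57, 7.10, 6.48 and 6.77, and its rise of 1.08 (SE 0.15) had the smallest p of all genes (adjusted p = 0.0238).

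Man1a, a Golgi mannosidase that trims N-glycans, had 8.56, 8.37, 8.47 and 8.93 at E15.5 and 9.24, 9.53, 9.24 and 9.61 at E16.5 (0.82, SE 0.13, adjusted p = 0.0254). Its other probe set gave 0.96. Npy2r, a receptor for neuropeptide Y, had 5.04, 5.32, 4.95 and 5.32 and then 5.79, 5.94, 5.98 and 5.93 (0.75, SE 0.12, adjusted p = 0.0254). Bcan, the matrix proteoglycan brevican, had 5.72, 5.89, 5.39 and 5.92 and then 6.62, 6.74, 7.01 and 6.53 (1.00, SE 0.17, adjusted p = 0.0254). None of the 3 overlapped between stages, but the other probe set of Bcan gave only 0.16 and the mean of its 2 probe sets did not pass (0.58). The probe sets kept for Bcan, Hbb-y and Hbb-bh1 are of a kind that may also bind related transcripts.

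Next in order of p, Cd1d1, which presents lipid antigens, had 10.05, 10.26, 9.86 and 10.13 at E15.5 and 10.71, 10.39, 10.84 and 10.83 at E16.5. It did not overlap (0.62, SE 0.11) and missed the threshold by little (adjusted p = 0.0522); without E16.5 array 2 it passed (0.72, adjusted p = 0.0323). Fndc1, a fibronectin-domain protein, was at 1.20 (SE 0.23, adjusted p = 0.0776) and Top1mt, the mitochondrial topoisomerase, at 0.61 (SE 0.12, adjusted p = 0.0776).

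Of 7 tested genes on a list named for steroid reduction and inactivation, 5 were higher at an unadjusted p under 0.05 (4.84% of all genes were). Not every gene on the list inactivates steroids. Of the 5, 1 passed, Cyp2f2, which is known for oxidising foreign chemicals rather than steroids. The median of the list was 0.48. Akr1d1, the 5-beta reductase of steroids, had 7.17, 8.10, 5.68 and 9.66 at E15.5 and 9.60, 9.06, 8.95 and 10.27 at E16.5. Its difference of 1.82 was the largest above 0 of all genes tested, but the E15.5 arrays spread widely, array 4 of them overlapped the later stage, the difference without array 3 was 1.16, and the gene did not pass (SE 0.56, adjusted p = 0.266). The SDs of Akr1d1 at E15.5 and E16.5 were 1.67 and 0.60 in controls, but 0.22 and 0.24 in knockouts. Akr1c18, which inactivates progesterone, had 8.17, 6.55, 8.05 and 5.91 and then 9.18, 9.34, 8.60 and 7.98 (1.6, SE 0.41, adjusted p = 0.175). E15.5 array 4 was highest for Akr1d1 and lowest for Akr1c18; it was also the pool without Y-linked signal, whose part in these values was not tested. Hsd11b1, which regenerates active glucocorticoid, was higher without overlap, at 0.48 (SE 0.16, adjusted p = 0.333).

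The enzymes that make corticosteroids did not pass in either direction. Of 11 tested, 2, Stard4 and Cyp17a1, were lower at an unadjusted p under 0.05 and none higher. Among all genes 3.01% were lower and 4.84% higher. The list median was 0.06. Star, which carries cholesterol into mitochondria, had 13.27, 13.49, 13.12 and 13.71 at E15.5 and 13.45, 13.34, 13.63 and 13.86 at E16.5 (0.17, SE 0.15). Cyp11b1, the last enzyme of corticosterone synthesis, had 13.66, 13.70, 13.46 and 13.92 and then 13.84, 13.73, 13.89 and 13.97 (0.17, SE 0.16). Both overlapped, with adjusted p-values of 0.875 and 0.883. Cyp11a1, which makes the first steroid of the pathway, was at −0.08 (SE 0.22), and at 0.14 without E16.5 array 2, its lowest array (12.66 against 13.48 to 13.61).

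Cyp17a1, the steroid hydroxylase of the fetal mouse cortex, had 10.17, 9.31, 9.75 and 9.19 at E15.5 and 9.44, 8.30, 8.49 and 9.25 at E16.5. It had the largest difference of the list, −0.74 (SE 0.31, adjusted p = 0.526), with overlap. Cyp21a1, the 21-hydroxylase, was at 0.36 (SE 0.24, adjusted p = 0.802), and Cyp11b2, aldosterone synthase, at 0.30 (SE 0.40, adjusted p = 0.92; −0.0072 without E15.5 array 3). Nr5a1, which encodes Sf1, the master regulator of the cortex, ranged from 10.39 to 11.68 at E15.5 and from 10.45 to 11.66 at E16.5 (0.13, SE 0.33; −0.09 without E16.5 array 1). Mc2r, the corticotropin receptor, was at 0.07 (SE 0.15; −0.018 without E16.5 array 1). In its signalling list of 20 genes, 2 were higher at an unadjusted p under 0.05 (4.84% of all genes were) and none passed. Pde8b, a cyclic AMP phosphodiesterase of the cortex, had 8.17, 7.95, 7.72 and 8.08 and then 8.45, 8.94, 8.34 and 8.68. Its stages did not overlap (0.62, SE 0.15, adjusted p = 0.15). Dicer1, intact in these glands, was at 0.03 (SE 0.11; −0.042 without E16.5 array 2).

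Most genes of 3 medullary lists had values above 0 (51.6% of all genes did), and none of the listed genes passed. E15.5 array 1 was low in these lists, with a mean over the synaptic genes of 7.99 against 8.89 to 8.93 in the other E15.5 arrays, and so was E16.5 array 2, at 8.4 against 9.03 to 9.22. Of 11 sympathoadrenal transcription factors 7 were above 0, none had an unadjusted p under 0.05 and the median was 0.044; E15.5 array 1 was again low, at 9.10 against 9.54 to 9.68. Of 11 catecholamine genes 10 had values above 0, none had an unadjusted p under 0.05, and the median was 0.14. Th, the first enzyme of catecholamine synthesis, had 10.001, 10.53, 9.90 and 10.87 at E15.5 and 10.46, 9.77, 10.61 and 10.18 at E16.5 (−0.07, SE 0.25; 0.09 without E16.5 array 2). Dbh, which makes noradrenaline, was at 0.19 (SE 0.11, adjusted p = 0.734). Pnmt, which makes adrenaline, had 11.55, 11.83, 10.62 and 11.22 and then 12.35, 9.91, 12.14 and 11.90. For Pnmt 3 of the 4 E16.5 arrays were above every E15.5 array and array 2 was below them all (0.27, SE 0.42, adjusted p = 0.932; 0.82 without E16.5 array 2, 0.014 without array 1 and 0.041 without E15.5 array 3). Of 14 granins and neuropeptides 13 were above 0 and 3 higher at an unadjusted p under 0.05, where 4.84% of all genes were (median 0.18). The 3 were Vgf (0.59, SE 0.19), Npy (0.49, SE 0.20) and Scg2 (0.44, SE 0.18). Without E16.5 array 1, 1 of the 14 was higher at that level, and without array 2, 5 were. Of 22 synaptic genes 20 were above 0 and 3 higher, among them the vesicle calcium sensor Syt1 (0.56, SE 0.24). Syt1 was at 0.36 without E15.5 array 1 and ran from 0.11 to 0.80 over all alternatives tried. Without E16.5 arrays 1 and 2, but with the low E15.5 array 1 kept, the medians of the 3 lists were 0.37, 0.37 and 0.49. At an unadjusted p under 0.05, 4, 4 and 7 genes were then higher. List medians without E15.5 array 1 are not given. The catecholamine means were 10.24, 10.72, 10.40 and 10.77 at E15.5 and 10.76, 10.12, 10.94 and 10.93 at E16.5. Those of the granin list were 8.88, 9.43, 9.18 and 9.27 and then 9.60, 9.11, 9.53 and 9.42.

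Macrophage genes were higher in every member. All 21 tested genes had values above 0 (51.6% of all genes did), and 11 were higher at an unadjusted p under 0.05 (4.84% of all genes were). None of the 21 passed, and the median was 0.36. Cd163, the haemoglobin scavenger receptor, had 6.45, 6.05, 6.10 and 7.0 at E15.5 and 6.94, 7.57, 7.34 and 7.64 at E16.5 (0.97, SE 0.21, adjusted p = 0.107). Mpeg1, a pore-forming protein of macrophages, had 7.91, 7.62, 7.95 and 7.94 and then 8.63, 8.34, 8.53 and 8.45 (0.64, SE 0.13, adjusted p = 0.106). Mpeg1 did not overlap, and Cd163 overlapped by E15.5 array 4 alone. Lgals3, galectin 3, was higher without overlap (0.65, SE 0.22). So was Ptprc, the CD45 antigen of all white cells (0.52, SE 0.10, adjusted p = 0.0824). Ptprc was not among the 21 but on the mast cell and lymphocyte list, and ran from 0.27 to 0.60 over all alternatives tried. Lgals3 was at 0.50 without E16.5 array 1 and at 0.76 without array 2. The list means were 7.66, 7.65, 7.85 and 7.78 at E15.5 and 8.43, 7.96, 8.13 and 8.0 at E16.5, highest in array 1. Without E16.5 arrays 1 and 2 all 21 stayed above 0, the median was 0.29 and 8 genes had an unadjusted p under 0.05.

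Genes of antigen presentation were mostly higher too. Of 19 interferon and MHC genes 6 were higher at an unadjusted p under 0.05 (4.84% of all genes were) and none lower. The median was 0.24. Without E16.5 array 1, which had the highest mean of this list, 3 were higher and the median was 0.17. Without E16.5 array 2 these were 9 and 0.38. H2-Aa, an MHC class II chain, had 4.57, 5.17, 4.91 and 5.48 at E15.5 and 7.09, 6.43, 6.96 and 5.89 at E16.5, without overlap (1.56, SE 0.44, adjusted p = 0.22). H2-Ab1, its partner chain, and Tap1, the peptide transporter, were also higher without overlap (0.62, SE 0.18, and 0.58, SE 0.15). Over all alternatives tried, H2-Aa ran from 0.63 to 1.96, H2-Ab1 from 0.30 to 0.69 and Tap1 from 0.15 to 0.67. Of 9 mast cell and lymphocyte genes 3, Ptprc, Cma1 and Cpa3, were higher at an unadjusted p under 0.05. The list median was 0.12 (0.016 without E16.5 arrays 1 and 2). The lymphocyte genes Cd3e, Cd79b, Cd8a and Il7r were at 0.12, 0.081, 0.046 and 0.11. The mast cell proteases Cma1 and Cpa3 were at 0.93 (SE 0.29) and 0.89 (SE 0.25), but Tpsb2, a mast cell tryptase, was at 0.15 and Kit, the mast cell growth factor receptor, at −0.18. Without E16.5 array 1 Cma1 and Cpa3 were at 0.74 and 0.68, and without array 2 at 1.11 and 1.05. Of 10 neutrophil genes 1 was higher at an unadjusted p under 0.05, and the median was 0.43; it was S100a9, at 1.48 (SE 0.58, adjusted p = 0.472), with E15.5 array 2 at 8.45 inside the E16.5 range of 7.92 to 8.76.

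**Figure D4:**
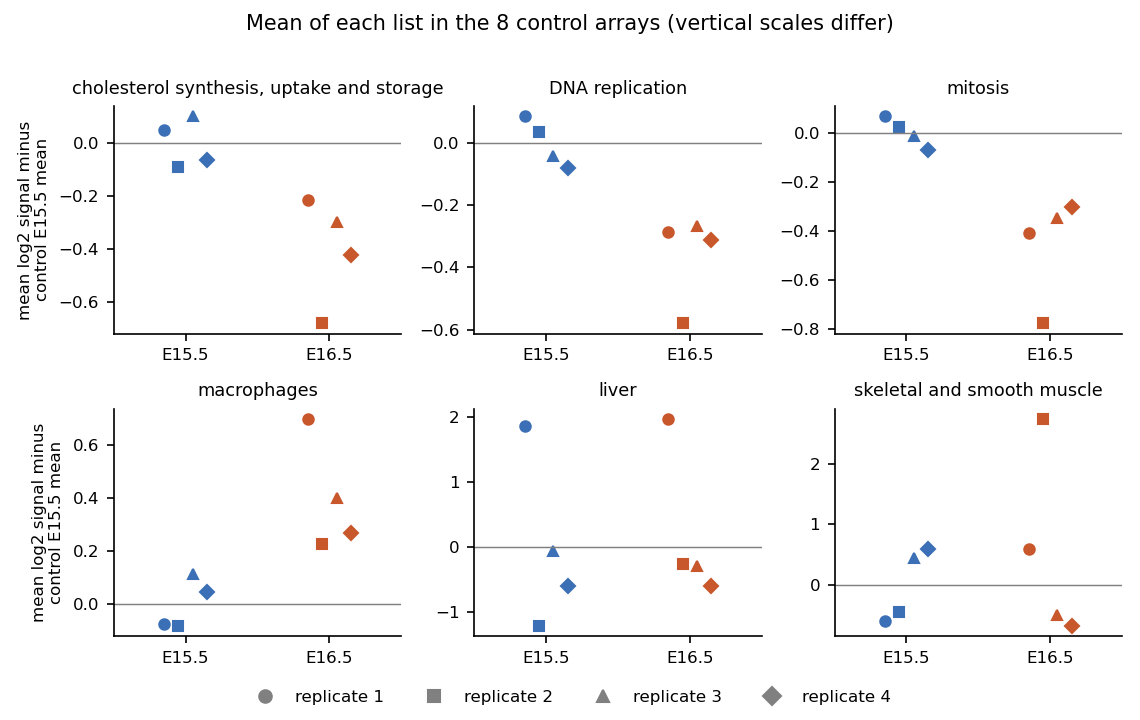
Mean log2 signal of 6 gene lists in each of the 8 control arrays, relative to the mean of the E15.5 arrays; marker shapes give the replicate number and vertical scales differ. The cholesterol, replication, mitosis and macrophage lists separate the stages, with E16.5 array 2 (square) lowest in the first 3, while the liver list is high in array 1 of both stages and the muscle list in E16.5 array 2.

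Capsule and signalling genes gave a few separated values. Of 18 capsule and mesenchyme genes 1 was higher and 1 lower without overlap, and of 12 hedgehog genes also 1 and 1. Of 25 Wnt genes none was higher and 1 lower without overlap. Over all genes tested these shares were 2.31% higher and 1.68% lower. Dpt, dermatopontin, a matrix protein of connective tissue, had 5.35, 6.32, 6.12 and 6.25 at E15.5 and 7.51, 8.76, 7.28 and 6.86 at E16.5 (1.59, SE 0.43, adjusted p = 0.196). Gli1, a target of hedgehog signalling in the capsule, had 6.75, 6.80, 6.77 and 6.99 and then 6.56, 6.24, 6.23 and 6.23 (−0.51, SE 0.18, adjusted p = 0.391). Both were without overlap, while Shh, the ligand made by the outer cortex, overlapped widely (−0.05, SE 0.16, and 0.10 without E16.5 arrays 1 and 2). Ptch1 and Hhip, on the same hedgehog list as Gli1, also overlapped, at −0.12 (SE 0.09) and −0.09 (SE 0.16). Dhh, a ligand of Schwann cells, was higher (0.37, SE 0.10) and Sfrp1, a Wnt antagonist, lower (−0.65, SE 0.18), each without overlap and with an adjusted p of 0.212. Of 20 genes known to respond to glucocorticoid 4 were higher at an unadjusted p under 0.05 (4.84% of all genes were) and none lower, and the median was 0.10. The 4 included Klf9 (0.37, SE 0.11) and Pdk4 (0.64, SE 0.20). Klf9 ran from 0.11 to 0.48 over all alternatives tried, and Pdk4 from 0.43 to 0.78. Among 21 lipid droplet and fatty acid genes Plin5, a droplet coat protein, was higher without overlap (0.67, SE 0.19), Elovl6, a fatty acid elongase, lower without overlap (−0.49, SE 0.11, adjusted p = 0.137), and the median was 0.012. Ribosomal protein genes, a reference for the scale, had a median of −0.05 over 22 genes, and none had an unadjusted p under 0.05.

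The same day in the knockout glands ran in the same direction for each of the 13 genes, and for each by less. In knockouts 123 genes passed (0.902% of those tested), 119 of them higher, and 2 of the 13 were among them, Abca8a (1.25 in knockouts) and Hbb-y (−2.80); they are 15.4% of the genes that passed in controls and 1.63% of those that passed in knockouts. Hba-x also passed in knockouts (−2.58, adjusted p = 0.0226). Hbb-y in knockouts read 13.52, 13.26, 13.45 and 12.87 at E15.5 and 11.91, 9.79, 10.04 and 10.16 at E16.5, so array 1 was again the highest E16.5 array, without overlap. Cyp2f2 in knockouts read 3.84 to 4.02 at E15.5 and 4.01 to 4.24 at E16.5, at the bottom of the scale at both stages, with a change of 0.14. The difference between the 2 changes did not pass for any gene (limma interaction, smallest adjusted p = 1; 258 genes, or 1.89%, had an unadjusted p under 0.05). At that level 7 of the 13 differed: Cyp2f2 (−1.63, SE 0.40), D630024D03Rik (−0.89, SE 0.21), Man1a (−0.63, SE 0.18), Bcan (−0.57, SE 0.23), Npy2r (−0.51, SE 0.17), Lss (0.49, SE 0.20) and Dlx1 (0.44, SE 0.18), knockout minus control. The 13 were chosen for their change in controls, so their smaller size in knockouts is a description. Beside the control medians, those of the knockout day were −0.36 for cholesterol genes, −0.19 for replication and −0.29 for mitosis. The knockout median was 0.16 for the steroid reduction and inactivation list and 0.81 for macrophage genes. Of the 21 macrophage genes 10 passed in knockouts (0.872% of all genes passed as higher there).

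**Figure D5:**
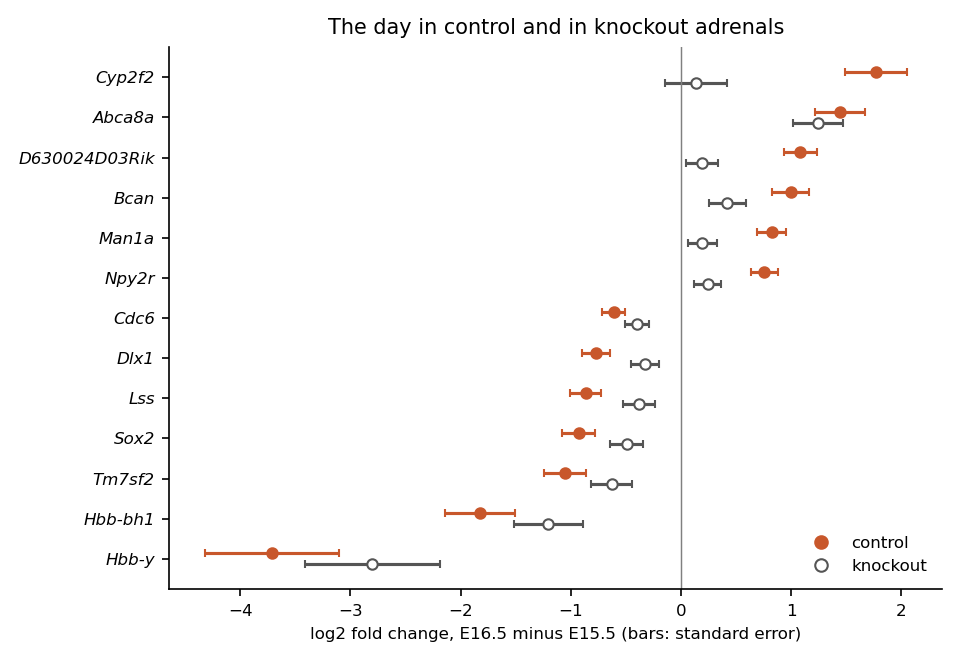
Log2 fold change from E15.5 to E16.5 of the 13 genes that passed in controls, in control (filled orange) and knockout (open grey) glands, with standard errors from the fit. Each pair of points lies on the same side of 0, with the knockout point nearer to 0, by the least for Abca8a (1.44 and 1.25) and by the most for Cyp2f2 (1.77 and 0.14).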

How the data were processed

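Adrenal RNA of 16 pools of mouse embryos was measured on 3′ expression arrays, 1 pool per array. The values used are the log2 signals the authors deposited in the series matrix; RMA is the method named in the submitters' processing notes, with no version, and no source used here says whether all arrays were normalised in 1 run. The number of arrays limits the precision.

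Of 45101 probe sets, 64 control probe sets were left out, 34945 had 1 gene symbol, 932 several and 9160 none, and only the first kind was named. One probe set per symbol was kept, the one with the highest mean over the 16 arrays. Of 18193 genes, 13642 were above the 40th percentile of signal in at least 4 arrays and were tested; 4551 were not. A model with 4 group means was fitted to all 16 arrays with limma 3.58.1 (R 4.3.3), and p-values were adjusted by the Benjamini-Hochberg method over the genes tested. Each SE therefore draws on the spread within knockout as well as control groups. The procedure was tested on simulated data first. Named genes were those that passed, then the smallest p-values up to 15 in each direction, up to 6 members per list by size of change, and a fixed set of adrenal genes; a few others were picked with their values in view. The comparison and the gene lists were chosen with earlier results of these data known. RefSeq promoter windows (GRCm38.p6) were found for 12 of the 13 genes that passed, all but Hbb-bh1. Alternatives changed the filter, the normalisation, the model, array weights, the probe set rule and the arrays included.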

Additional observations from a re-analysis of the deposited data

Results flagged for a closer look

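In 13 of 180 group comparisons, each over the 4 pools of a stage, 1 pool lay far from the other 3 of its stage (chance gives about 5%). Of the 13, 4 concerned E16.5 array 1, 5 E16.5 array 2 and 4 other arrays. E16.5 array 1 was at 8.55 for Abca8a, where the other 3 were at 8.96 to 9.0, at 8.22 for Hba-x, where they were at 5.57 to 5.67, at 6.56 for Gli1, where they were at 6.23 to 6.24, and at 8.68 for the mean of the liver genes, where they were at 6.12 to 6.45. E16.5 array 2 was at 6.13 for Sox2 (others 6.54 to 6.57), at 11.05 for Pcna (12.61 to 12.72), at 12.66 for Cyp11a1 (13.48 to 13.61), at 8.79 for Plin5 (8.13 to 8.18) and at 6.32 for the mean signal of the array (6.31 in each). At E15.5, array 4 was at 11.50 for Fdps (12.28 to 12.43), array 2 at 7.62 for Mpeg1 (7.91 to 7.95) and at 8.45 for S100a9 (6.28 to 6.57), and array 1 at 10.87 for Npy (11.42 to 11.52).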

How the results depend on the processing

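Against 13 genes that passed (6 higher, 7 lower), limma's array weights gave 1102 (729 and 373), with a weight of 10.4 on E16.5 array 3 and 0.19 on array 2, and gene-by-gene weights, chosen after seeing the data, gave 381 (252 and 129). The 8 control arrays alone gave 0 (0 and 0; 828 at an unadjusted p under 0.05), the stricter filter 8 (3 higher), the 3′ to 5′ covariate 17 (10 higher), the mean of probe sets 7 (3 lower), and the arrays without E16.5 arrays 1 and 2 gave 4 (1 and 3), of which 2, Hbb-y and Hbb-bh1, were among the 13. Leaving out 1 array gave 0 to 19 (0 to 10 higher, 0 to 9 lower). The test of whether the day's change differed between knockout and control passed 0 genes, and 6 under array weights. The globin median was −0.96 with no filter and −2.41 without E16.5 arrays 1 and 2. Without those arrays the count of lower genes at an unadjusted p under 0.05 was 13 for replication and 15 for mitosis. The mitosis median was then −0.27, and 3 genes of the steroid reduction and inactivation list were higher at that level. Leaving out 1 array gave 14 to 23 lower genes for replication. The median of the steroid reduction and inactivation list was 1.04 under the stricter filter. The causes of these shifts were not tested.

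Replicate numbers were shared between the stages, whose litters differ. Same-numbered control arrays of the stages deviated together with r of 0.19, −0.23, −0.20 and 0.02. Between control and knockout arrays of 1 number, r ran from −0.39 to 0.39 at E15.5 and from −0.20 to 0.45 at E16.5. Such values cannot show whether arrays of 1 number were handled together, and this was not tested. With the number as a fixed block 9 genes passed (4 higher, 5 lower; 7 among the 13), and with pools of 1 stage and number, control and knockout together, as a random block 13 did (6 and 7; correlation 0.0766).

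Of 86 genes, 77 kept their direction under every alternative, the 13 among them; of 282 alternative values of the 13, 120 no longer passed, and of 1602 values of the others, 100 passed. The rest reversed, none of them past the threshold in the reported fit. With array weights and gene-by-gene weights Hba-a2 was at −0.097 and −0.11, Cyp11a1 at 0.23 and 0.20, Th at 0.34 and 0.29, Shh at 0.30 and 0.23, and Hbb-b2 at 0.000654 with the former. With the 3′ to 5′ covariate Hba-a2 was at −0.037, Cyp11a1 at 0.038, Th at 0.050 and Dicer1 at −0.022. With the mean of probe sets Hbb-b2 was at 0.00899 and Cyp11a1 at 0.065. Without E16.5 arrays 1 and 2 Hba-a2 was at −0.13, Cyp11a1 at 0.17, Nr5a1 at −0.19, Th at 0.067 and Shh at 0.097. Leaving out 1 array gave −0.21 to 0.30 for Hba-a2, −0.23 to 0.15 for Hbb-b2, −0.18 to 0.14 for Cyp11a1, −0.0072 to 0.69 for Cyp11b2, −0.086 to 0.41 for Nr5a1, −0.018 to 0.18 for Mc2r, −0.21 to 0.11 for Th, −0.22 to 0.039 for Shh and −0.042 to 0.083 for Dicer1. The filter left out only the dimmest genes. Genes of low signal, for which arrays resolve little, stayed in, among them Hba-a2, Dlx1, Npy2r and H2-Aa.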

Other observations

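Among the gene groups not described above, 6 gave the following counts. Of 22 endothelial genes 1 was lower at an unadjusted p under 0.05 (median −0.13), and of 19 imprinted growth genes none was (median −0.15). Of 21 p53 target and apoptosis genes 3 were higher (median 0.080), and of 9 Schwann cell precursor genes 1 was higher (median 0.22). At that level 4.84% of all genes were higher and 3.01% lower. Of 16 genes of the microRNA machinery none had an unadjusted p under 0.05 (median −0.081), and of 16 circadian clock genes none had (median 0.012). No gene of these lists passed the adjusted test (limma, Benjamini-Hochberg).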
